A study of Mus musculus with 6 samples.

Results

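Cytotoxic lymphocytes are CD8 T cells and natural killer (NK) cells, which kill other cells by releasing granules. Perforin opens the target cell's membrane, granzymes enter and start its death, and interferon gamma released by the same cells acts on its surroundings. After a myocardial infarction such cells enter the injured heart in small numbers beside the far more abundant macrophages. Here 10 genes of these cells were followed: Gzma, Gzmb, Gzmk, Prf1, Nkg7, Cd3e, Cd8a, Cd8b1, Klrd1 and Ifng. They were taken by gene name from the gene probes of the arrays and have 12 probes among 55661. Of these genes, 7 were bright enough to be tested, among 22991 genes tested in all. The genes were chosen with the values of this comparison known, so what follows describes them and supports nothing about the treatment.

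The hearts came from male C57BL/6 mice, 8 weeks old by the labels, 21 days after ligation of the left anterior descending coronary artery. The antagomir group (3 arrays) had received 80 mg/kg of an oligonucleotide that blocks miR-433, by tail vein on 3 consecutive days. The control group (3 arrays) had received a scrambled oligonucleotide in the same way, so every mouse had an infarct and an injected oligonucleotide. The study's stated aim was to see if this inhibition prevents fibrosis of the heart. Nothing in the labels ties an array to its own mouse or to a region of the heart, and p-values therefore measure only the spread between these samples.

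A single slide and scan held all 6 arrays, with antagomir arrays 1 to 3 and control array 3 in row 2 and control arrays 1 and 2 in row 1. Gene spots well above background made up 55.2%, 56.2% and 73.6% on antagomir arrays 1, 2 and 3, against 58.3%, 58.5% and 57.7% on control arrays 1, 2 and 3. The arrays' number limits the precision of every mean. The cardiomyocyte marker Tnni3, cardiac troponin I, gave signals of 98614, 94724 and 131310 on the antagomir arrays and 102260, 90549 and 104840 on the control arrays, so that every array carried heart muscle RNA. Signals below are processed fluorescence units as deposited. A level is log2 of that signal minus the array's 75th percentile, and all folds and differences are taken between levels.

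Both mature arms of miR-433 are shown because the labels do not say which one the antagomir binds. The sequences are RefSeq's on GRCm38.p6, from chr12:109591781-109591802 and chr12:109591729-109591750 on the plus strand, with the seed (bases 2 to 8) in capitals. 
mmu-miR-433-3p: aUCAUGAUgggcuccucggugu
mmu-miR-433-5p: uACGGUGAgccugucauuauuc

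Promoters of 4 granule genes are shown because they include the 2 genes farthest above the other arrays, Gzma and Gzmb, and one that did not stand apart, Gzmk. Each is the 250 bases before the gene's start, 5′ to 3′ on the gene's strand, from RefSeq on GRCm38.p6. RefSeq promoters were matched for 8 of the 10 genes. Capitals mark matches on either strand to GGTGTGA (the T-box family), TGTGGT (RUNX), TTCNNNGAA (STAT) or GAAANNGAA (IRF), families known to act in cytotoxic lymphocytes or downstream of interferon.
Gzma, chr13:113100982-113101231, minus strand: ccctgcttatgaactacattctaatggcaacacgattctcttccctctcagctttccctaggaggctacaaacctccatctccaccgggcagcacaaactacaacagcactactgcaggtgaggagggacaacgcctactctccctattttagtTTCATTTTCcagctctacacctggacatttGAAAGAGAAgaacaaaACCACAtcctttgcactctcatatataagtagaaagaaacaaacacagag
Gzmb, chr14:56262335-56262584, minus strand: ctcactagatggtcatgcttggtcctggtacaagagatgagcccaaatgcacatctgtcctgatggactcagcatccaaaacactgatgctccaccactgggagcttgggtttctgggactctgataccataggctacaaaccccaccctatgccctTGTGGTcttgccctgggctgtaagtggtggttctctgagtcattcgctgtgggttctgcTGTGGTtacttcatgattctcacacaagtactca
Nkg7, chr7:43436888-43437137, plus strand: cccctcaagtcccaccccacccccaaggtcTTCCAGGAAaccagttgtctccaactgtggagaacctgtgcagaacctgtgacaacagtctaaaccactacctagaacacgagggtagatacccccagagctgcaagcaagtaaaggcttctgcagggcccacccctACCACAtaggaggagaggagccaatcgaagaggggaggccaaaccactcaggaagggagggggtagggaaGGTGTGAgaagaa
Gzmk, chr13:113180966-113181215, minus strand: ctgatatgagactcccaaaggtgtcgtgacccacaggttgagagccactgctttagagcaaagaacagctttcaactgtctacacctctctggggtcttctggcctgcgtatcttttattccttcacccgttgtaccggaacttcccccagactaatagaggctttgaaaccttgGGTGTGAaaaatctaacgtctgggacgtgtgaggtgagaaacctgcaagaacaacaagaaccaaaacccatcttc

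RUNX letters stood in the promoters of Gzma, Gzmb, Nkg7 and Prf1, and in 14.0% of all 32851 RefSeq promoter windows of the same length. The T-box letters were in those of Nkg7 and Gzmk and in 3.33% of all windows. STAT letters were in those of Nkg7 and Ifng and in 7.02% of all windows. The IRF letters were in that of Gzma and in 7.13% of all windows. Matches in the windows shown did not overlap. A match of letters is a description of the window, not a binding site.

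The granzymes differed most among themselves. Gzma encodes granzyme A, a trypsin-like protease of the granules, and its probe lies at chr13:113884035-113884094 (mm9, minus strand). It gave 60.3, 5852 and 46.5 on antagomir arrays 1, 2 and 3, against 85.6, 82.2 and 60.2 on the control arrays. Antagomir array 2 alone was high, 83.0-fold above the highest of the other 5, while antagomir arrays 1 and 3 lay within or under the control range of signals. RNA was measured in whole tissue, so more cells of a type and more RNA per cell cannot be told apart here or in any later result. Gzmb encodes granzyme B, the protease that activates caspases in the target cell, and its probe lies at chr14:56877916-56877975 (mm9, minus strand). It gave 14.1, 1623 and 19.3 on the antagomir arrays and 18.7, 7.09 and 8.30 on the control arrays. It was well above background on antagomir array 2 and control array 1 only, and was at least 58.0-fold higher on antagomir array 2 than on any other.

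Gzmk, encoding granzyme K, neighbours Gzma on chromosome 13, and its probe (chr13:113970774-113971087, mm9, minus strand) covers 60 bases of that span. It gave 37.8, 46.2 and 52.1 on the antagomir arrays and 53.9, 68.6 and 50.3 on the control arrays. Its highest value was on control array 2, the groups overlapped, and it was the only gene of the 10 that was not highest on antagomir array 2. Prf1 encodes perforin and was measured at chr10:60766941-60767000 (mm9, plus strand). Its signals were 30.1, 97.6 and 67.9 on the antagomir arrays and 48.7, 35.8 and 36.5 on the control arrays. Antagomir array 2 was highest by 1.57-fold over antagomir array 3, the next highest.

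Nkg7, a protein of the granule membrane, was read by 2 probes, both highest on antagomir array 2 and next highest on antagomir array 3. The brighter one (chr7:50693530-50693589, mm9, plus strand) gave 794, 4358 and 1010 on the antagomir arrays and 903, 889 and 870 on the control arrays. The dimmer one (chr7:50693148-50693207) gave 17.0, 1147 and 75.1 on the antagomir arrays and 20.2, 24.4 and 12.96 on the control arrays. Antagomir array 2 exceeded the highest of the others by 4.72-fold on the brighter probe and by 16.7-fold on the dimmer one. After scaling, the brighter probe's levels were 1.14, 3.59 and 1.35 on the antagomir arrays and 1.03, 0.96 and 1.05 on the control arrays, so its groups did not overlap on that scale although they did by raw signal. The dimmer probe's groups did overlap on that scale, with antagomir array 1 at −4.40 and control array 2 at −4.23. By the probe that stood for each of the 7 genes tested, groups without overlap were seen for Nkg7 alone. The share of all genes tested whose antagomir arrays all lay above the control arrays was 8.78%.

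**Figure D1:**
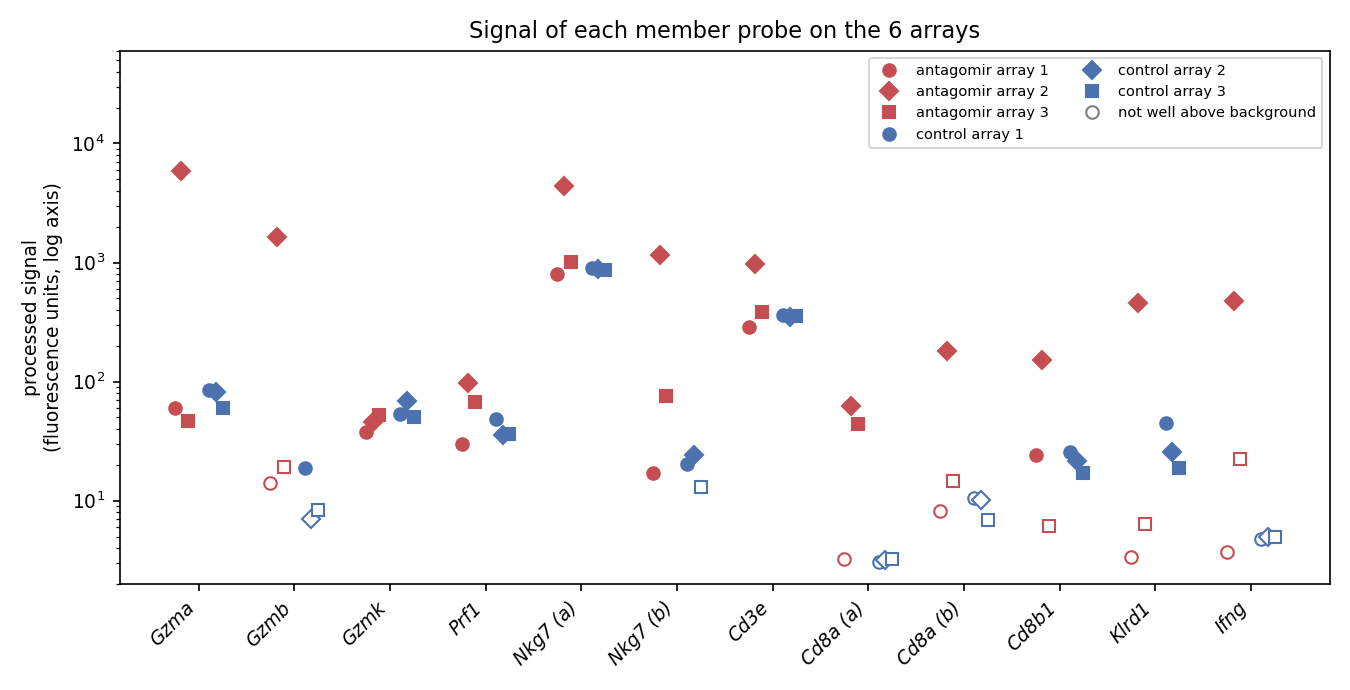
Processed signal (fluorescence units, log axis) of the 12 probes of the 10 cytotoxic lymphocyte genes, with antagomir arrays in red to the left of control arrays in blue and open symbols for probes not well above background. Nkg7 (a) is the brighter and (b) the dimmer probe, and Cd8a (a) is the single-spot and (b) the 10-spot probe. Antagomir array 2, the red diamond, reached 5852 for Gzma and 1623 for Gzmb, while for Gzmk it gave 46.2, inside the range of the other arrays.

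Genes of surface proteins that identify the cells were also highest on antagomir array 2. Cd3e, a chain of the T cell receptor complex found on all T cells, gave 285, 975 and 382 at chr9:44806828-44806887 (mm9, minus strand) on the antagomir arrays and 359, 346 and 357 on the control arrays. It was 2.79-fold higher on antagomir array 2 than on the next array, and the other 5 arrays lay close together. Cd8b1, the beta chain of the CD8 co-receptor (chr6:71287231-71287290, mm9, plus strand), gave 24.0, 151 and 6.18 on the antagomir arrays and 25.9, 21.6 and 17.0 on the control arrays. Antagomir array 2 was at least 5.41-fold above the rest, and antagomir array 3 was not well above background.

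Cd8a, the alpha chain of the co-receptor, was too dim to be tested with either of its probes. The probe printed in 10 spots (chr6:71328911-71328970, mm9, plus strand) gave 8.25, 182 and 14.6 on the antagomir arrays and 10.5, 10.2 and 6.84 on the control arrays. It was well above background on antagomir array 2 alone, at least 6.51-fold over the others. The other probe (chr6:71323885-71323944) gave 3.22, 63.0 and 43.9 on the antagomir arrays and 3.06, 3.15 and 3.23 on the control arrays, and was well above background on antagomir arrays 2 and 3. For both probes no control array was well above background.

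Klrd1 (CD94), the partner of the NKG2 receptors on NK cells and some CD8 T cells, was measured at chr6:129548612-129548671 (mm9, plus strand). It gave 3.39, 460 and 6.37 on the antagomir arrays and 44.6, 25.7 and 18.8 on the control arrays. All 3 control arrays but only 1 of 3 antagomir arrays were well above background, and on that one, array 2, it was 12.5-fold above the highest control array. Ifng encodes interferon gamma and was read in 2 spots at chr10:117882841-117882900 (mm9, plus strand). Its signals were 3.69, 479 and 22.4 on the antagomir arrays and 4.75, 4.95 and 4.97 on the control arrays. Only antagomir array 2 was well above background, by at least 17.1-fold.

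By each gene's probe of highest mean, 9 of the 10 genes had their highest level on antagomir array 2, and 7 were at least 4-fold above the highest of the other 5 arrays there. Those within 4-fold were Gzmk, Prf1 and Cd3e. Among the 7 genes tested, 6 were highest on it and 4 were at least 4-fold above. Of all genes tested, 0.483% were at least 4-fold above the other 5 arrays on antagomir array 2, and 18.4% were highest on it. The same 4-fold share was 0.0% for antagomir array 1, 1.19% for antagomir array 3, 0.0% for control array 1, 0.17% for control array 2 and 0.00435% for control array 3. All 12 probes were well above background on antagomir array 2, as were 7 on antagomir array 1 and 7 on antagomir array 3, against 9, 8 and 7 on control arrays 1, 2 and 3. With each of 5 other scalings the count highest on antagomir array 2 was again 9, and the count at least 4-fold above was 5 with normexp background correction and 7 with the other 4. The genes were chosen with these values known, so their counts on antagomir array 2 are a description and not a test.

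Averaged over 3 arrays, the groups differed by less than the spread within the antagomir group. Gzma had a mean level of −0.55 ± 3.96 on the antagomir arrays and −2.55 ± 0.23 on the control arrays (SD, n = 3 each), a log2 difference of 2.00 with a standard error of 1.87. Nkg7 differed by 1.01 ± 0.65, Prf1 by 0.79 ± 0.43, Cd3e by 0.66 ± 0.46 and Cd8b1 by 0.65 ± 1.13 (log2, antagomir minus control, with standard errors from limma). For Gzmk the value was −0.11 ± 0.17, and for Klrd1 it was −0.14 ± 1.85 and turned to 0.45 with normexp and quantile scaling. By limma's moderated test 0 of the 7 passed an adjusted p of 0.05, and 0 reached 0.05 unadjusted. Their adjusted p-values ran from 0.691 to 0.981, and 0.013% of all genes tested passed. Nothing is read from that count, since the genes were chosen on this contrast. The median over the 7 was 0.66, against 0.092 over all genes tested, and 5 were higher and 2 lower with the antagomir, where 62.6% of all genes were higher.

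Without antagomir array 2 the same 7 genes had a median difference of −0.14, and 3 were higher and 4 lower. Klrd1 then differed by −2.37 on the log2 scale, its 2 remaining antagomir arrays being not well above background. Cd8b1 differed by −0.58 and Gzma by −0.29, while Prf1 differed by 0.40, Nkg7 by 0.23 and Cd3e by 0.11. Gzmk, at −0.14, was the gene least moved. On the mean of the 7 genes relative to the control mean, antagomir arrays 1, 2 and 3 stood at −0.38, 2.83 and −0.38 log2 units, against 0.20, −0.038 and −0.16 for control arrays 1, 2 and 3. One array thus carried the higher mean of the antagomir group. The other 2 means were under all 3 control arrays but included values not well above background. Klrd1 entered them at levels of −6.73 and −5.96 on antagomir arrays 1 and 3, against a control mean of −3.98. Cd8b1 entered at −6.00 on antagomir array 3, against −4.37. The place of these 2 arrays under the controls is therefore not read as a result for the 7 genes.

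**Figure D2:**
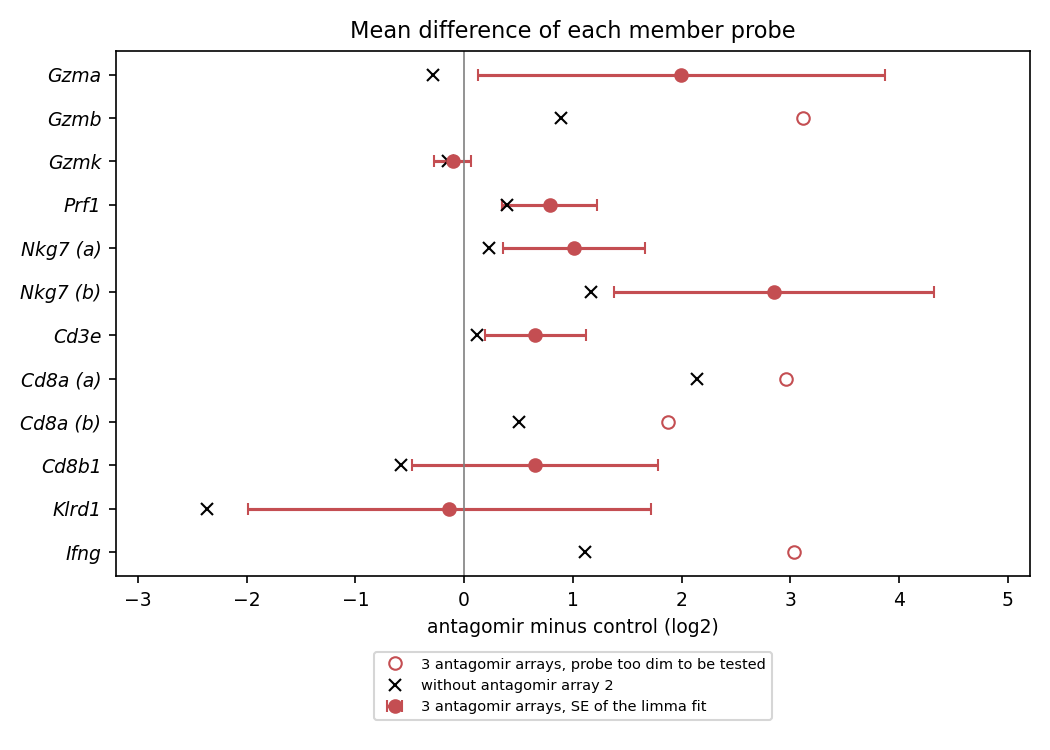
Mean log2 difference, antagomir minus control, of each of the 12 probes, with filled circles and bars for the limma estimate and its standard error, open circles for probes too dim to be tested and crosses for the value without antagomir array 2. Without that array Gzma moved to −0.29 and Klrd1 to −2.37, and Gzmk stayed near 0, at −0.14.

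Related genes were counted in 14 lists of immune genes, which were written with earlier results of these data known. Over all of them 137 genes were tested, 0 passed limma's adjusted p of 0.05 and 8 reached 0.05 unadjusted, all of these higher with the antagomir. The share of all genes at that unadjusted p was 3.05% higher and 4.16% lower. Of the 137, 96 were highest on antagomir array 2 and 35 were at least 4-fold above the other 5 arrays there. Of all genes tested, 18.4% were highest on it and 0.483% at least 4-fold so.

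Other granule genes were mixed. Of 13 tested, 9 were highest on antagomir array 2 and 2 at least 4-fold so, namely Gzmc and Ctsw. Their median difference was 0.30, turned to −0.17 with median scaling, and was −0.074 without that array. Gzmc, a granzyme of the Gzmb cluster whose members are alike in sequence, gave 5.86, 356 and 63.5 on the antagomir arrays and 21.9, 13.01 and 9.75 on the control arrays. Ctsw, a cathepsin made in cytotoxic cells, gave 46.4, 770 and 137 on the antagomir arrays and 78.8, 98.4 and 58.5 on the control arrays. Both were high on antagomir array 2 and next highest on antagomir array 3. Cst7 (cystatin F), an inhibitor of granule cathepsins, gave 4.12, 155 and 48.2 on the antagomir arrays and 17.9, 8.48 and 3.28 on the control arrays. Gzmc and Cst7 were not well above background on antagomir array 1 and control arrays 2 and 3. Gzmm, granzyme M, was looked up after its values were seen and did not follow, with 2467, 1967 and 2161 on the antagomir arrays and 2509, 1051 and 2396 on the control arrays.

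Genes of the T cell receptor complex and its signalling followed antagomir array 2 too. Of 15 tested, 13 were highest on it and 10 at least 4-fold above the other arrays. The median difference was 1.103, 0.57 with quantile scaling and −0.16 without that array. Lck, the kinase that starts receptor signalling, and Cd3d, another chain of the complex, were chosen after their values were seen. Lck gave 32.0, 1491 and 64.9 on the antagomir arrays and 75.1, 112 and 60.9 on the control arrays. Cd3d gave 8.53, 963 and 52.0 on the antagomir arrays and 53.5, 43.7 and 44.0 on the control arrays. Each was far highest on antagomir array 2. Lck was lowest on antagomir array 1, where Cd3d was not well above background.

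By smallest unadjusted p the list's leading genes were Cd247, Lat and Ptprcap. Cd247, the zeta chain of the receptor complex, gave 22.0, 35.3 and 38.0 on the antagomir arrays and 27.6, 20.8 and 19.9 on the control arrays, a difference of 0.69 ± 0.24 (adjusted p = 0.669). It turned to −0.22 with quantile scaling. Lat, an adaptor of receptor signalling, gave 23.6, 372 and 161 on the antagomir arrays and 32.8, 43.0 and 23.9 on the control arrays. Ptprcap, a partner of CD45, gave 284, 1595 and 369 on the antagomir arrays and 317, 252 and 277 on the control arrays.

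Of the NK cell receptor list, 8 of 16 genes were tested, 5 were highest on antagomir array 2 and 2, Klrg1 and Il2rb, at least 4-fold so. The median difference was 0.44 and turned to −0.073 with quantile scaling, −0.035 with median scaling and −0.38 without antagomir array 2. Il2rb, the receptor chain for interleukin 2 and 15 shared by NK and CD8 T cells, gave 16.1, 1095 and 77.3 on the antagomir arrays and 33.8, 30.9 and 24.1 on the control arrays. Cd226, an activating receptor, gave 3.09, 174 and 157 on the antagomir arrays and 8.67, 15.9 and 10.9 on the control arrays. S1pr5, a receptor that NK cells use to leave tissues, gave 103, 105 and 101 on the antagomir arrays and 84.3, 30.7 and 124 on the control arrays. Cd226 was thus high on 2 antagomir arrays, Il2rb on 1, and S1pr5 on none. Cd226 was not well above background on antagomir array 1 and control arrays 1 and 3.

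Among transcription factors of the cytotoxic lineage, 4 of 7 were tested and 2 were highest on antagomir array 2, where Stat4 alone was at least 4-fold above the others. The median difference was 0.17, turned to −0.25 with quantile scaling, and was −0.60 without that array. Runx3, which sustains the CD8 fate, gave 36.1, 38.8 and 89.1 on the antagomir arrays and 42.4, 34.8 and 30.9 on the control arrays, with its highest signal on antagomir array 3.

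Chemokines that draw lymphocytes, and their receptors, did likewise: 10 of 12 tested were highest on it and 6 at least 4-fold so. The median difference was 0.24, turned to −0.26 with quantile scaling, and was −1.11 without that array. Cxcl9, an interferon gamma target that attracts CXCR3-bearing T cells, gave 273, 7081 and 270 on the antagomir arrays and 330, 252 and 226 on the control arrays. Ccl5, made by cytotoxic T cells themselves and chosen after its values were seen, gave 104, 16502 and 206 on the antagomir arrays and 364, 407 and 151 on the control arrays. Ccl5 on antagomir array 2 was 50.9-fold over the next highest array. Cx3cr1, a receptor carried by macrophages as well as cytotoxic cells, gave 180, 1836 and 187 on the antagomir arrays and 1091, 2879 and 1349 on the control arrays. Its log2 difference was −1.80 ± 0.98 (adjusted p = 0.691) and −2.92 once antagomir array 2 was left out. It passed the threshold with median scaling only, at −2.27.

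Interferon gamma signalling and its targets had 15 of 19 genes highest on antagomir array 2 and 9 at least 4-fold so. The median difference was 0.49, 0.017 with median scaling and −0.28 without that array. Iigp1, a GTPase that interferon gamma induces against intracellular parasites, gave 941, 12941 and 920 on the antagomir arrays and 965, 674 and 1301 on the control arrays. Igtp, a related GTPase chosen after its values were seen, gave 3796, 90647 and 2881 on the antagomir arrays and 3977, 3111 and 4182 on the control arrays. Nos2, inducible nitric oxide synthase, was lower on every antagomir array, with 512, 565 and 472 on the antagomir arrays and 711, 755 and 734 on the control arrays. Antagomir arrays 1 and 3 were within the control range for Iigp1 and array 1 was within it by signal for Igtp.

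CD4 and regulatory T cell genes had 4 of 9 highest on antagomir array 2 and 2 of 9 on antagomir array 3. All 9 tested were higher on average with the antagomir, with a median difference of 0.44 that was 0.44 without antagomir array 2 as well and −0.029 with median scaling, and 0 were at least 4-fold above the others on that array. Gata3, a factor of helper and regulatory T cells, gave 80.0, 149 and 125 on the antagomir arrays and 63.8, 34.7 and 53.5 on the control arrays, a difference of 1.46 ± 0.33 (adjusted p = 0.545). Foxp3, the defining factor of regulatory T cells, gave 22.6, 33.1 and 64.7 on the antagomir arrays and 22.9, 18.4 and 11.6 on the control arrays (1.34 ± 0.41, adjusted p = 0.625). Ctla4, an inhibitory receptor of these cells, gave 17.4, 38.0 and 113 on the antagomir arrays and 11.1, 4.20 and 18.3 on the control arrays (2.39 ± 0.81, adjusted p = 0.659). Foxp3 and Ctla4 were the 2 with their highest level on antagomir array 3. Ctla4 was not well above background on control arrays 1 and 2, nor was Foxp3 on control array 3.

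Cytokines of cytotoxic cells and their receptors had 5 of 9 genes highest on antagomir array 2, 0 of them by 4-fold, and a median difference of 0.23, which was −0.044 with quantile scaling. Il15, the cytokine that keeps NK and memory CD8 T cells alive, gave 2618, 1448 and 1831 on the antagomir arrays and 1149, 529 and 1588 on the control arrays, and was highest on antagomir array 1. Checkpoint receptors and ligands had 6 of 6 highest on antagomir array 2, with Cd274 (PD-L1) alone at least 4-fold so, and a median difference of 1.01, which was 0.32 without that array. Tox, a factor of persistently stimulated CD8 T cells, gave 66.1, 139 and 98.1 on the antagomir arrays and 38.9, 25.1 and 64.0 on the control arrays (1.52 ± 0.44, adjusted p = 0.612).

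**Figure D3:**
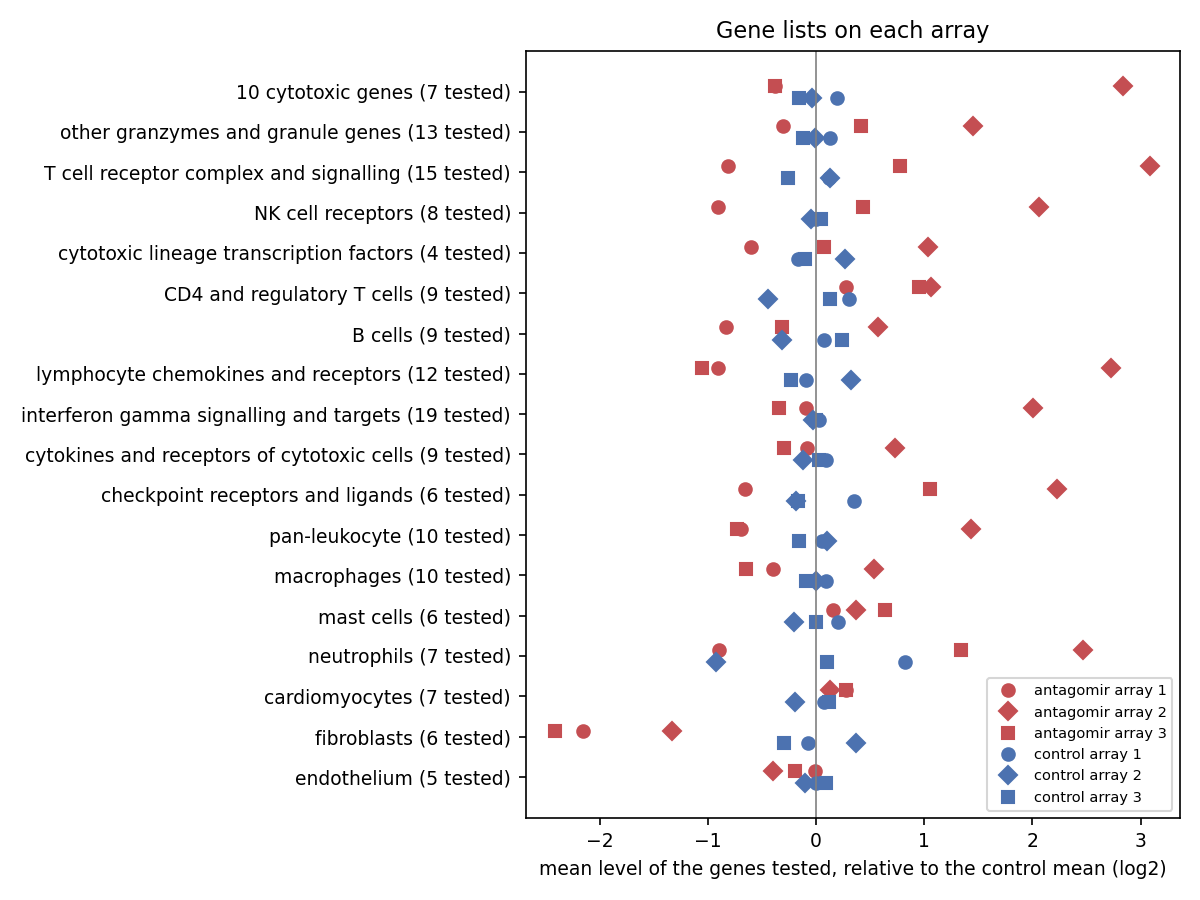
Mean level of the tested genes of each list on each array relative to the mean of the control arrays (log2), with antagomir arrays in red above control arrays in blue. Antagomir array 2, the red diamond, stood at 2.83 for the cytotoxic genes, 3.09 for the T cell receptor list, 2.73 for chemokines and 2.01 for interferon gamma targets, while the cardiomyocyte list was at 0.13 there.

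Markers of other cells moved with antagomir array 2 in part. The pan-leukocyte list had 9 of 10 genes highest on it, with a median difference of 0.0013 over all arrays (−0.47 with median scaling), and stood at −0.69, 1.43 and −0.73 on antagomir arrays 1, 2 and 3 against 0.058, 0.098 and −0.16 on the control arrays. Its leading gene Itgal, an integrin chain of lymphocytes and other leukocytes, gave 81.8, 282 and 109 on the antagomir arrays and 99.9, 74.8 and 113 on the control arrays. Neutrophil markers had 4 of 7 highest there and 3 at least 4-fold so, a median of 1.27 (−0.046 without that array), and means of −0.90, 2.47 and 1.34 on the antagomir arrays against 0.83, −0.92 and 0.099 on the control arrays. Mpo, the enzyme of neutrophil granules, gave 15.7, 155 and 19.5 on the antagomir arrays and 14.1, 9.83 and 15.7 on the control arrays. It was not well above background on antagomir array 3 and control arrays 1 and 2. The part of these cells in the cytotoxic genes' values was not tested.

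Macrophage markers had 7 of 10 highest on antagomir array 2 but 0 by 4-fold, with a median difference of −0.34 (−0.81 with median scaling) and means of −0.40, 0.53 and −0.64 on the antagomir arrays against 0.094, −0.0035 and −0.090 on the control arrays. Mertk, the receptor by which macrophages take up dying cells, gave 331, 286 and 352 on the antagomir arrays and 521, 518 and 408 on the control arrays. B cell genes had 5 of 9 highest there and 0 by 4-fold, with a median of −0.23, and of −0.88 with quantile scaling. Fcer2a (CD23) gave 40.3, 44.1 and 95.1 on the antagomir arrays and 46.3, 44.3 and 48.2 on the control arrays. Mast cells also carry granzymes, and their list had 2 of 6 highest there and 0 by 4-fold, with a median of 0.36 and of −0.11 with median scaling. Their protease Cpa3 gave 31.6, 49.1 and 49.2 on the antagomir arrays and 36.5, 12.99 and 25.2 on the control arrays (1.13 ± 0.42, adjusted p = 0.674).

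The cardiomyocyte list stood at 0.28, 0.13 and 0.28 on the antagomir arrays against 0.077, −0.19 and 0.12 on the control arrays. Fibroblast genes stood at −2.16, −1.33 and −2.41 on the antagomir arrays against −0.077, 0.37 and −0.30 on the control arrays, and endothelial genes at −0.0081, −0.39 and −0.19 against 0.0021, −0.099 and 0.097. All 6 fibroblast genes were lower on average, 4 of them with an unadjusted limma p under 0.05, as were 4.16% of all genes. Dcn and Pdgfra, named after their values were seen, differed by only −0.0016 and −0.35 log2 units. Antagomir array 2 was the lowest of the 6 for the endothelial list and the highest of the antagomir arrays for the fibroblast list.

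A pair of atrial muscle genes, chosen after their values were seen, also differed between arrays. Myl7, the atrial myosin light chain, gave 47.0, 4031 and 14938 on the antagomir arrays and 15.4, 14.7 and 461 on the control arrays. Sln, sarcolipin, gave 131, 12445 and 39411 on the antagomir arrays and 27.3, 104 and 608 on the control arrays. Both were highest on antagomir array 3, where Gzma gave 46.5, and next highest on antagomir array 2. Whether the parts of the heart taken had a share in the cytotoxic genes' values was not tested.

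The probes of the cytotoxic genes were set against a property that marked dim probes on antagomir array 3, their share of purines (A and G). Stretches of 30 bases of 5 probes are shown, 5′ to 3′ with purines in capitals. They were taken because their whole probes range from the least purine-rich of the set, Cd8b1 at 31.7%, to the most, Cd8a at 50%. A stretch need not hold the share of its whole probe. That of Cd8b1 holds 12 purines in 30 bases, and that of Gzma holds 6, though Gzma's whole probe holds 38.3%. The positions are those of the whole 60-base probes on mm9.
Gzma, chr13:113884035-113884094, minus strand: tGtctttcActccAtccctGtcActtctGt
Gzmb, chr14:56877916-56877975, minus strand: ccccGAGAAtGttAtctAAtGctAGtcAtc
Ifng, chr10:117882841-117882900, plus strand: cttccctAtAcAGctGAAAActGtGActAc
Cd8b1, chr6:71287231-71287290, plus strand: AGtAGGAAGtttctAAGcttcActtcttct
Cd8a, chr6:71323885-71323944, plus strand: tctcAccctGAAcAAGttcAGcAAGGAAAA

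Whole probes of the 10 genes held 31.7% to 50% purines, with a median of 42.5%, against a median of 50% over all gene probes. Among probes that were dim on the other 5 arrays, 3.92% of those under 40% purines were well above background on antagomir array 3, and 82.4% of those with 60% purines or more. On antagomir array 2 the shares ran from 2.48% to 3.42% over the 6 purine classes. Of probes dim on the other arrays and in the class of the single-spot Cd8a probe, 42.6% were detected on antagomir array 3, where that probe gave 43.9. Related genes whose signal on antagomir array 3 was their highest or next highest varied in purine share, and not all such genes are listed. The probes of Lat, Gata3, Ctla4, Cd226 and Cst7 held 68.3%, 66.7%, 66.7%, 63.3% and 61.7%. Those of Il15, Cd247, Gzmc, Mpo, Tox and Foxp3 held 56.7%, 55%, 51.7%, 51.7%, 50% and 50%. Those of Cpa3, Ctsw, Il2rb, Ptprcap, Runx3 and Fcer2a held 45%, 43.3%, 41.7%, 41.7%, 40% and 38.3%. The part of purine share in their values was not tested.

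**Figure D4:**
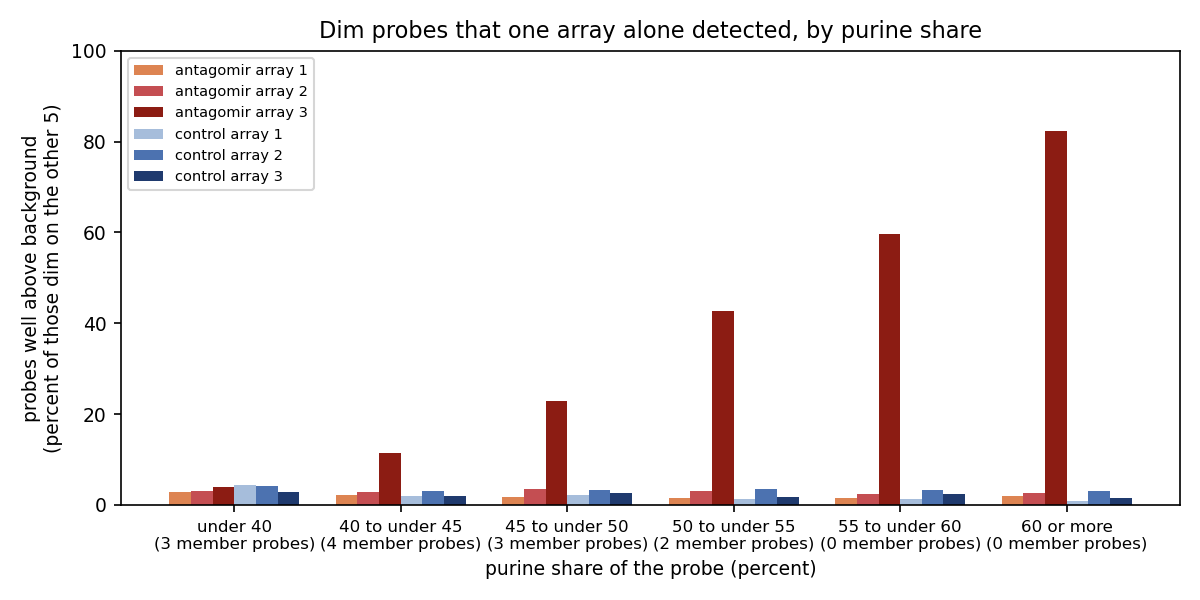
Share of probes (percent) that were well above background on one array, among those dim on the other 5, by the purine share of the probe, with antagomir arrays left of control arrays. Antagomir array 3 climbs to 82.4% in the class of 60% purines or more, which holds 0 probes of the cytotoxic genes, while antagomir array 2 stays between 2.48% and 3.42%.

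The 5 genes outside the set whose levels over the 6 arrays were most like the mean of the 7 tested genes had Pearson correlations of 0.998 to 0.999. This is a description over 6 arrays that share 1 far value, and it carries no p. They were Gbp11, Lztfl1, AI790276 and 2 probes without a gene name. Gbp11, of the family of guanylate-binding proteins, gave 14.1, 273 and 14.8 on the antagomir arrays and 32.6, 25.3 and 20.3 on the control arrays. AI790276 gave 17.9, 910 and 17.5 on the antagomir arrays and 42.9, 39.4 and 29.9 on the control arrays. Lztfl1 varied in a narrow range, with 1771, 2644 and 1957 on the antagomir arrays and 2325, 2386 and 2160 on the control arrays. In each of these 3 genes antagomir arrays 1 and 3 had the lowest signals and antagomir array 2 the highest. Gbp11 was not well above background on antagomir arrays 1 and 3, nor was AI790276 on antagomir array 3.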

How the data were processed

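Total RNA of 6 mouse heart samples, 3 given the antagomir and 3 the scrambled oligonucleotide, was labelled with Cy3 and hybridised to Agilent arrays of 1 colour. The deposited scanner files came from Agilent Feature Extraction 10.7.1.1, per the submitters' processing notes. Their processed signals, mean signals and local backgrounds are intensities, per the file headers, and the processed signal is corrected for background within the array and not scaled between arrays. Other deposited columns hold names, positions (mm9) and 0 or 1 for a spot being well above background, saturated or an outlier, per the file headers. The authors' deposited table holds their own log2 values, whose medians are equal on all arrays; the labels give no method for it.

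From these files, control spots and outlier spots (154 to 233 per array) were dropped and spots of a probe averaged on the log2 scale. Each array's 75th percentile was subtracted. A probe was tested if well above background on at least 3 of 6 arrays, and the probe with the highest mean stood for its gene. Names followed RefSeq accessions and symbols where these matched (26574 probes by accession, 2600 by symbol, 492 by synonym) and otherwise the file (25995). limma 3.58.1 in R 4.3.3 compared the groups, with Benjamini-Hochberg adjustment over all 22991 genes. Drawing was done with matplotlib 3.10.9 and tabulation with numpy 2.4.6 and pandas 2.3.3 under Python 3.11.15. A permutation of 3 against 3 cannot give a two-sided p below 0.1. The fit was tested on simulated data.

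The 10 genes and the related lists were chosen with earlier results of these data known. Named beside the 10 are, from each list, up to 3 tested genes of smallest unadjusted p, and the 5 genes most like the mean of the 7 tested genes over the arrays. Any other gene was picked once its values were known, as stated beside it. This holds for Klrg1, Stat4 and Cd274 too, where it was not stated. One gene that the rule names is not reported here. Alternatives were normexp (offset 50) with quantile scaling, quantile scaling, median scaling, the percentile over probes above background everywhere, the authors' log2 table, no filter, a filter on all 6 arrays, means of probes, each probe by itself, robust moderation, array weights, the replicate block and each array left out. The slide row as a block was added after the data were seen.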

Additional observations from a re-analysis of the deposited data

How the results depend on the processing

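The 3 genes past the threshold over all genes, none of the 10 (Defa-ps1, Gngt1 and a chromosome 6 transcript with no symbol, named after their values were seen), became 0 with normexp and quantile scaling, with the filter on all 6 arrays, with the replicate block and with slide row blocked. They were 1 with quantile scaling, with the percentile over probes above background on all arrays, with the authors' table and without a filter, 6 with every probe by itself and 8 with array weights. Median scaling called 199, 34 higher and 165 lower, and moved the median of all genes to −0.38, against 0.092; quantile scaling moved it to −0.030. Leaving out 1 array gave 0 to 3. In the main fit the control levels of Defa-ps1, Gngt1 and the chromosome 6 transcript ran from −7.28 to −6.96. The single-spot Cd8a probe, not well above background on any control array, had −7.18 to −7.03 there. Purine shares of the Defa-ps1, Gngt1 and chromosome 6 probes were 66.7%, 68.3% and 56.7%, and their part in these values was not tested. Deviations of same-numbered arrays correlated at 0.22, 0.14 and −0.049. Arrays of unlike number were not compared, so whether replicate numbers pair the arrays was not settled. Among related genes 1, Cx3cr1, passed with median scaling (−2.27) and 0 did otherwise. The median of the cytotoxic genes ran from −0.14, without antagomir array 2, to 1.17 when 1 array was left out. So left out, values turned within −0.29 to 3.27 for Gzma, −0.58 to 1.79 for Cd8b1 and −2.37 to 1.17 for Klrd1. List medians then turned within −0.074 to 0.37 (granule genes), −0.16 to 2.17 (T cell receptor), −0.38 to 0.77 (NK receptors), −0.60 to 0.42 (transcription factors), −0.68 to 0.037 (B cells), −1.11 to 0.86 (chemokines), −0.28 to 0.97 (interferon gamma), −0.55 to 0.34 (pan-leukocyte) and −0.046 to 2.44 (neutrophils). With median scaling the medians of granule genes (−0.17), NK receptors (−0.035), transcription factors (−0.31), CD4 and regulatory T cells (−0.029), chemokines (−0.23), cytokines (−0.24), pan-leukocyte genes (−0.47) and mast cells (−0.11) turned. With quantile scaling NK receptors (−0.073), transcription factors (−0.25), chemokines (−0.26), cytokines (−0.044), pan-leukocyte genes (−0.16) and Cd247 (−0.22) turned, and the authors' table gave −0.074, −0.25, −0.26, −0.045, −0.16 and −0.22 for the same. Array weights turned granule genes (−0.013), NK receptors (−0.22), transcription factors (−0.10), chemokines (−0.21), pan-leukocyte genes (−0.34) and neutrophils (−0.62). Normexp turned transcription factors (−0.022), pan-leukocyte genes (−0.061) and Klrd1 (0.45). Pan-leukocyte genes turned to −0.022 with the other percentile, and transcription factors to −0.15 with the filter on all arrays. The slide row block turned Gzmk (0.015), Klrd1 (0.37) and S1pr5 (−0.10). Without turning, the checkpoint median came to 0.31 with normexp and 0.30 with array weights, that of neutrophils to 0.49 with normexp and that of mast cells to 0.087 with normexp. The cause was not tested in any of these. Dim probes limit Gzmb, Cd8a, Ifng and Klrd1, whose values at background have no order. Values not well above background were also among those of Cd8b1, Gzmc, Cst7, Cd226, Ctla4, Foxp3, Mpo, Cpa3, Cd3d, Klrg1, Stat4 and Myl7. Such values have no order either, and differences that include them are limited in the same way.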
